A study of Mus musculus with 12 samples.

Results

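The change from wild type (wt) to R6/1 was compared between the retina and the striatum, gene by gene, to find which genotype effects depended on the tissue and which were shared. All 12 libraries of the series were used, 3 for each genotype in each tissue. Of 17579 genes in the table, the 15731 with at least 10 counts over the 6 libraries of each tissue were tested. R6/1 mice carry a transgene made of exon 1 of the human huntingtin gene, with its CAG repeat expanded, which is driven by a fragment of the human huntingtin promoter and adds a truncated protein to the intact mouse gene. The wt animals were littermates without it, and both genotypes were males aged 13 to 15 weeks. RNA of 3 to 4 mice was combined for each library, which gives 3 such pools in a group and a spread measured between pools. The strain is C57Bl/6 in the labels and C57BL/6 J in the methods. Per the methods, each R6/1 and wt mouse gave both its retina and its striatum, but it is not stated that equal replicate numbers mark the same pool.

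Huntington's disease is known above all for the loss of function of medium spiny neurons, the GABAergic projection neurons that make up most of the striatum. The retina is the light-sensing part of the central nervous system. Its rods and cones turn light into electrical signals that bipolar, horizontal and amacrine cells pass to the ganglion cells, while Müller glia span its thickness and microglia patrol it. Both tissues hold neurons of very different kinds, beside glia that can respond to injury with a shared set of genes.

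The quantity tested was the log2 fold change of R6/1 over wt in the retina minus that in the striatum, called the difference here. A negative difference means that the gene was lowered more, or raised less, in the retina than in the striatum. It was tested in edgeR (quasi-likelihood F-test) in one fit of all 12 libraries, with Benjamini-Hochberg adjustment over all genes tested and a threshold of 0.05. The fold changes of each tissue come from separate fits of its 6 libraries, so they do not subtract exactly to the difference. Levels are CPM values (counts scaled to a common library size with TMM factors). They are not divided by gene length and are compared only within a gene. Standard errors (SE) are on the log2 scale. A value with its SE in parentheses after a gene is its difference, lists of 3 levels are in the order of the replicate numbers, and positions are on GRCm38.

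Total counts ran from 14070445 to 22432431 per library. The labelled tissues carried their defining markers, with Gnat1, the alpha subunit of rod transducin, at 2624 to 11261 CPM in retinas and 0.241 to 0.681 CPM in striata, and with the myelin gene Mog at 57.2 to 76.3 CPM in striata and at 0 in all retinas. The cone opsin gene Opn1mw was at 96.4 to 106 CPM in wt retinas and at 0 to 0.155 in R6/1 retinas. One R6/1 retina carried lens crystallin RNA, with the 16 lens genes of the table, 6 of them tested, summing to 849 CPM there and to at most 90.4 CPM in the other retinas. The choroid plexus gene Ttr, which encodes transthyretin, reached 131 CPM in 1 R6/1 striatum and at most 13.3 CPM in the others. Among the wt striata, replicate 2 had lower medium spiny neuron and cortical markers. Among the R6/1 striata, replicate 2 was likewise the lowest for Ptpn5, Homer1 and Pde10a, whose levels are given below.

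The difference passed the test for 1296 genes, 8.24% of those tested. Negative differences were found for 765 genes, 4.86% of those tested, and positive ones for 531, which is 3.38%. These are called lower and higher here. The median difference was −0.59 among the former and 0.67 among the latter, and 148 and 126 genes differed by at least 1 on the log2 scale. Scaling to library totals in place of TMM turned the balance, with 555 genes lower and 637 higher, so the share of lower calls went from 59.0% to 46.6%. Leaving out wt striatum replicate 2 raised the counts to 1097 and 902.

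The retinal fold change was the larger one, in absolute size, for 589 of the 765 lower and 310 of the 531 higher genes. The gene was called in the retina alone for 600 and 324 of them, and in the striatum alone for 5 and 74. This split depended on the fit. With the replicate number as a block in every fit, 1044 genes were lower and 833 higher, of which 700 and 340 were called in the retina alone and 105 and 320 in the striatum alone. Without the block, the fold changes of the tissues had opposite signs for 573 of the 765 and 416 of the 531. For 272 genes the difference passed there although neither tissue alone did. With the block in every fit this held for 163 of the 1044 lower and 53 of the 833 higher genes.

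**Figure D1:**
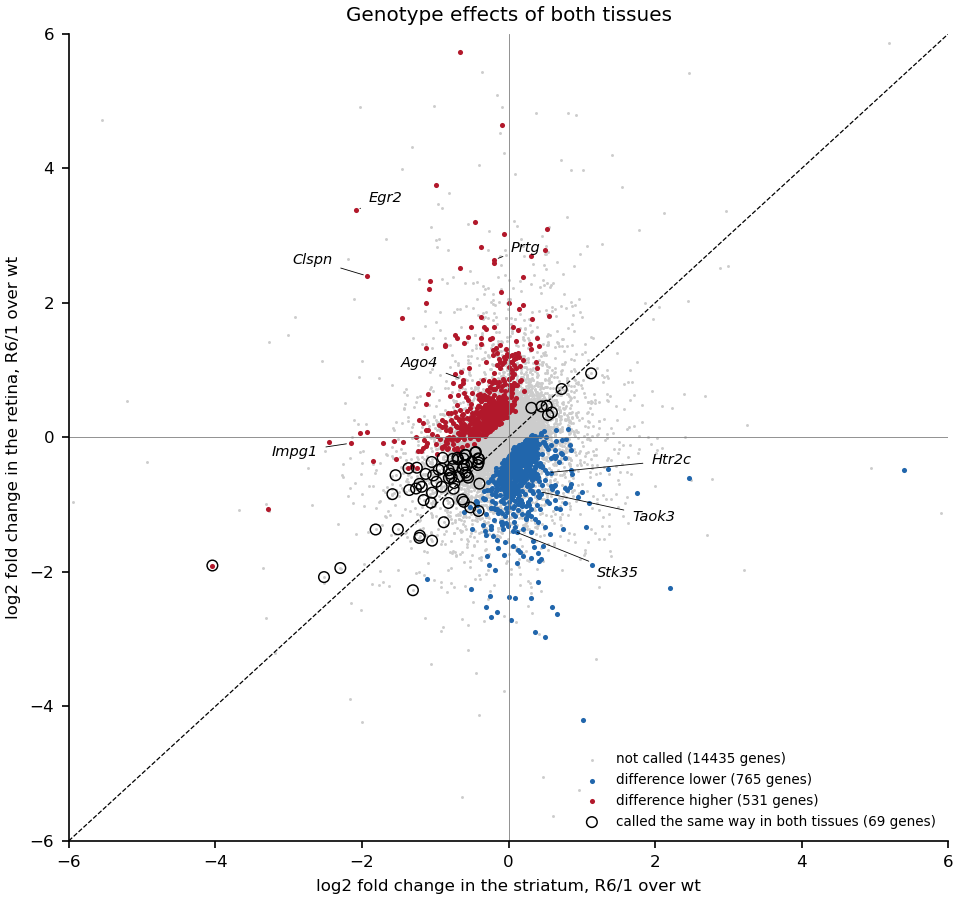
Log2 fold change of R6/1 over wt in the striatum (x axis) and the retina (y axis), 1 point per gene. Blue and red points are the 765 genes with a lower and the 531 with a higher difference, open circles are the 69 genes called the same way in both tissues, the dashed line marks equal effects, and points beyond 6 on either axis are not drawn. Coloured points spread mainly along the vertical axis, and most circles lie in the lower left part, where both tissues are lower.

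The smallest p belonged to Stk35, a gene for a serine/threonine kinase found in the nucleus (ENSMUSG00000037885, chromosome 2 from 129800517 to 129832287). Its level was 717, 743 and 682 CPM in the wt retinas and 273, 254 and 270.5 CPM in the R6/1 retinas. In the striatum it was 24.4, 25.4 and 24.5 CPM in wt and 25.4, 24.5 and 27.9 CPM in R6/1. The retinal groups stood far apart and the striatal groups overlapped, and the difference was −1.49, SE 0.09, adjusted p = 1.93e-06 with a 95% interval of −1.69 to −1.29. As background, 38.7% of the genes had no overlap of the genotypes in the retina and 26.1% had none in the striatum.

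Klhl18, a substrate adaptor of a ubiquitin ligase (ENSMUSG00000054792, chromosome 9 from 110425926 to 110476694), went from 339, 366 and 363 CPM in wt retinas to 174, 172 and 184 CPM in R6/1 retinas. In the striatum it was 28.9, 33.5 and 28 CPM in wt and 35.1, 33.1 and 34.7 CPM in R6/1, giving a difference of −1.19, SE 0.10, adjusted p = 1.7e-05. Xiap, an inhibitor of caspases (ENSMUSG00000025860, chromosome X from 42059679 to 42109656), fell from 969, 990.1 and 960.1 to 559, 498 and 526 CPM in the retina. In the striatum its levels were 194, 177 and 176 CPM in wt and 209, 203 and 193 CPM in R6/1, and the difference was −1.03, SE 0.09, adjusted p = 3.7e-05. For both genes every R6/1 retina lay below every wt retina, while the striatal groups were close together. The ubiquitin ligase genes Rnf123 (−1.05, SE 0.10) and Peli3 (−1.29, SE 0.13) and the adaptor gene Klhl3 (−1.12, SE 0.13) also had lower differences.

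Pfkfb2, which makes and removes the activator of glycolysis fructose 2,6-bisphosphate, fell from 533, 527 and 504 to 237, 219 and 258 CPM in the retina. It stood at 51.1, 49.2 and 54.3 CPM in wt striata and 46.5, 48.7 and 47.7 CPM in R6/1 striata, for a difference of −1.02, SE 0.10, adjusted p = 4.13e-05. The sulfate transporter gene Slc26a2 had a difference of −1.28, SE 0.11, Mylk, a kinase of myosin light chains, −1.33, SE 0.13, the fibrillar collagen gene Col27a1 −1.92, SE 0.17, the fibronectin type III gene Fndc1 −2.23, SE 0.24, and the chromatin protein gene Hmgb2 −1.54, SE 0.17. The uridine kinase-like gene Uckl1 (−1.41, SE 0.15) and Fam3c, which encodes a secreted protein (−1.14, SE 0.12) were lower too. Adjusted p was at most 0.000184 for Stk35 and each gene with a lower difference named after it here. All of them passed in the retina, with log2 fold changes from −2.52 (Fndc1) to −0.85 (Xiap), and none of these passed in the striatum, where they lay between −0.31 (Fndc1) and 0.34 (Col27a1).

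The photoreceptor genes were harder to compare, since the striatum barely expresses them. The gene lists used here and below were written with earlier results of these data known, so their shares are descriptive. All 27 tested members of a list of rod phototransduction and outer segment genes passed as lower in the retina, where 12.6% of all genes did so. The difference passed for 9 of the 27, all lower, beside 4.86% of all genes. It was lower for 5 without wt striatum replicate 1, for 5 with 1 higher without R6/1 striatum replicate 2, and for 4 with 1 higher without both striatal libraries numbered 2. The median difference of the list was −1.25, beside −0.02 over all genes tested. In the striatum 15 of the 27 had a mean under 1 CPM, and 7 of the 12 at or above 1 CPM had a lower difference. The margin of the 95% interval on either side of the difference had a median of 0.89 for the rod genes and 0.35 for all genes. In bulk tissue, fewer cells of a type and less RNA per cell cannot be told apart.

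Gnb1, the beta subunit of the rod transducin that other neurons use as well, showed the difference with the smallest p of the rod list. It was at 6276, 6296 and 6757 CPM in wt retinas and 3153, 2176 and 3099 CPM in R6/1 retinas. In the striatum it was at 602, 538 and 575 CPM in wt and 547, 548 and 568 CPM in R6/1, and the difference was −1.15, SE 0.16, adjusted p = 0.000608. Gnb1 thus fell in the tissue of the rods and kept overlapping groups in the other. Rdh12, a retinol dehydrogenase of photoreceptors, was at 458, 492 and 455 CPM in wt retinas and 249, 184 and 223 CPM in R6/1 retinas, with striatal levels of 1.61 to 4.49 CPM in all 6 libraries (−1.78, SE 0.29, adjusted p = 0.00337). Its log2 fold change was −1.07 in the retina and 0.70 in the striatum, where it did not pass, so its difference rests partly on low striatal counts. For Gnat1 the interval of the difference reached from −2.88 to 0.33, with striatal levels of 0.241 to 0.681 CPM.

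Of 13 cone genes in the table only 8 had enough counts in both tissues, and Opn1mw, at 0 in all striata, was not tested. Among the 8, 2 were lower (1 in 10 of the 12 fits with a library left out), beside 4.86% of all genes. One was Kcne2, a potassium channel subunit gene at 57.8, 56 and 58 CPM in wt retinas and 13.8, 11.2 and 10.4 CPM in R6/1 retinas (−4.44, SE 0.87, adjusted p = 0.00878). Its log2 fold change was −2.24 in the retina and 2.20 in the striatum, where its mean was 0.224 CPM and it did not pass, so its difference rests partly on striatal counts near 0. Of 7 horizontal cell genes 3 were lower: Calb1, a calcium-binding protein gene (−0.94, SE 0.16), Sept4, a septin gene (−0.74, SE 0.14), and the transcription factor gene Onecut1. Onecut1 fell in the retina from 7.22, 8.03 and 8.54 to 4.51, 5.91 and 4.91 CPM, while it went from 0.12, 0.77 and 0.0619 CPM in wt striata to 1.69, 2.34 and 1.61 CPM in R6/1 striata, where it did not pass (adjusted p = 0.0948). Of 11 ganglion cell genes 3 were lower, beside 4.86% of all genes. Among them were Rbpms, an RNA-binding protein gene (−1.30, SE 0.26), and Nefl, a neurofilament gene (−0.50, SE 0.12, not passing without wt retina replicate 2). The third was Pou4f3, which did not pass in the retina and had a mean of 0.143 CPM in the striatum. Its call thus rests on striatal counts near 0. Of 13 amacrine genes the glycine transporter gene Slc6a9 (−0.84, SE 0.10) and the transcription factor gene Pax6 (−0.60, SE 0.16) were lower and Slc17a8 was higher. Of 14 bipolar genes 2 were lower, Isl1 (−0.83, SE 0.14) and Rgs9bp (−1.59, SE 0.36). Both are counted in other lists as well, Rgs9bp among the rod genes and Isl1 among the medium spiny neuron markers, so these counts are not independent. Pax6 did not pass without wt retina replicate 1, 2 or 3, R6/1 retina replicate 1 or 2, or R6/1 striatum replicate 2 or 3, and Rgs9bp did not pass without R6/1 striatum replicate 2.

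**Figure D2:**
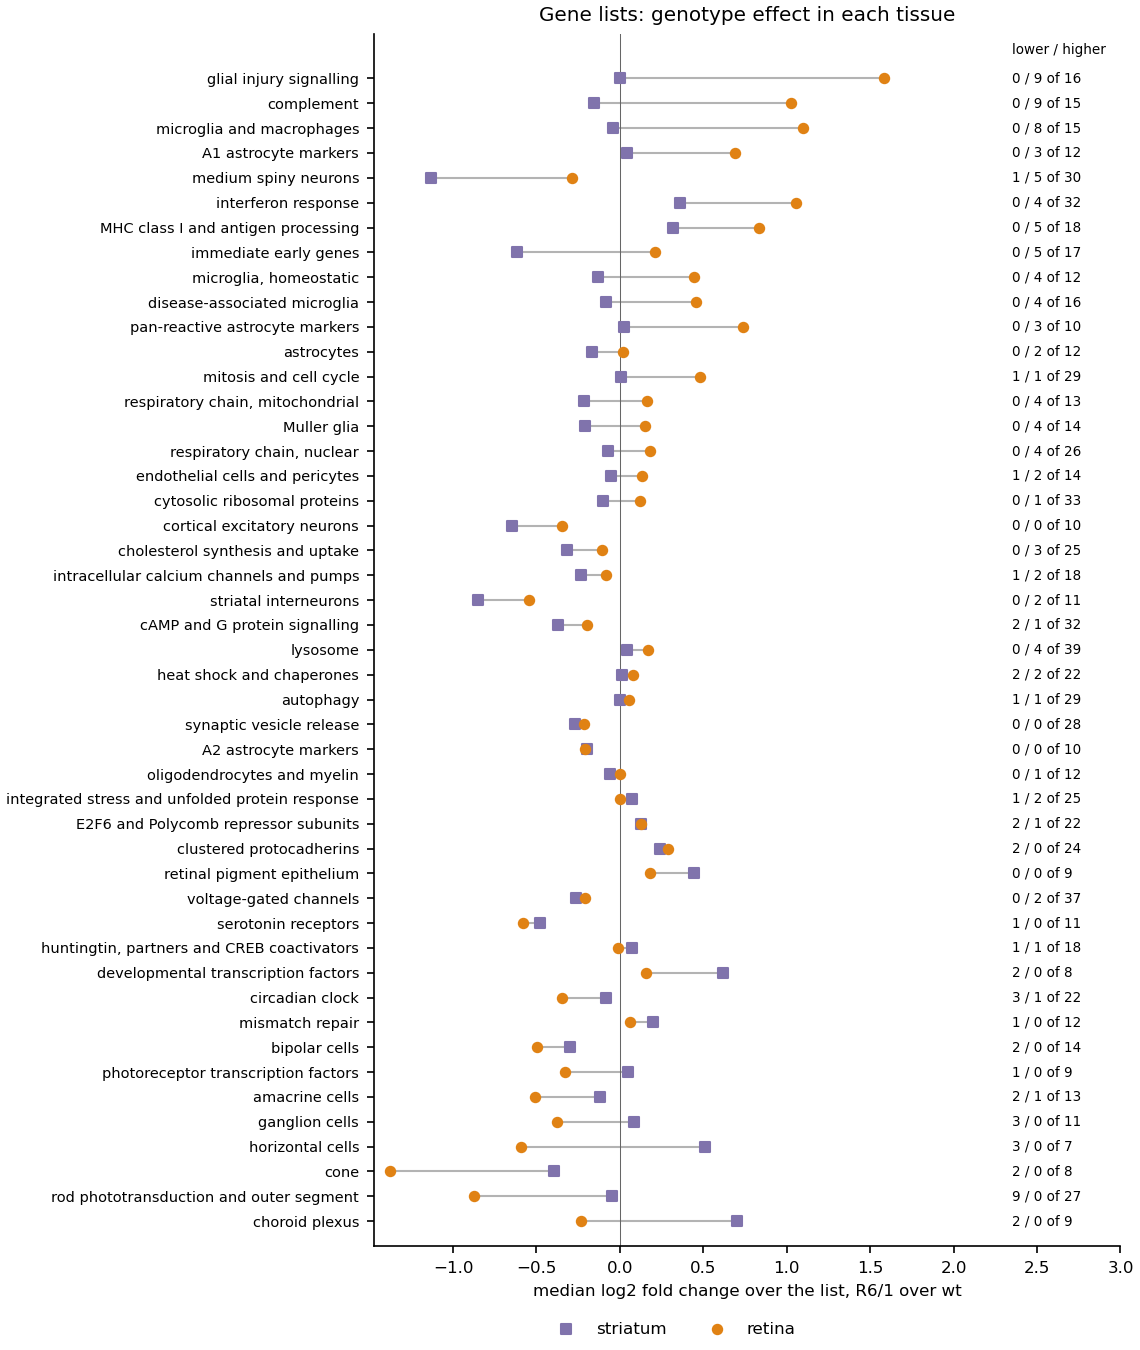
Median log2 fold change of R6/1 over wt in the retina (circles) and the striatum (squares) for the gene lists with at least 7 genes tested, ordered by the median difference. The right column gives, for each list, the genes with a lower and a higher difference of those tested; choroid plexus, rod and cone lists lie at one end, glial injury signalling and complement at the other.

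Genes with higher effects in the retina included transcriptional regulators. E2f6, a repressor of the E2F family that acts with Polycomb proteins (ENSMUSG00000057469, chromosome 12 from 16810963 to 16839742), went from 29.5, 29 and 25.8 CPM in wt retinas to 59.9, 63.9 and 54.9 CPM in R6/1 retinas. In the striatum it was 37.7, 34.2 and 35.8 CPM in wt and 32.1, 32 and 35.3 CPM in R6/1, and the difference was 1.20, SE 0.11, adjusted p = 4.13e-05. Only the retinal groups were apart. Over all genes tested, 3.38% had a higher and 4.86% a lower difference. Of the 22 tested E2F6 and Polycomb genes, E2f6 was the one with a higher difference, and Suz12 (−0.38, SE 0.09) and Mga (−0.41, SE 0.11) had lower ones. Neither of those passed without R6/1 striatum replicate 1, wt striatum replicate 3, wt retina replicates 1 or 3 or R6/1 retina replicate 2. Suz12 also missed the threshold without R6/1 retina replicate 3, and Mga without R6/1 retina replicate 1, wt striatum replicate 1 or R6/1 striatum replicate 3.

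Prtg, which encodes the cell adhesion protein protogenin of the embryonic nervous system, had the higher difference with the smallest p. Its level was 7.82, 6.49 and 8.88 CPM in wt retinas and 42.7, 57.4 and 42.2 CPM in R6/1 retinas. Striata held 5.3, 5.34 and 6.31 CPM in wt and 4.94, 4.99 and 4.87 CPM in R6/1, for a difference of 2.80, SE 0.21, adjusted p = 9.43e-06. Fabp7, a fatty acid-binding protein of glial progenitors, was at 1.15, 2.51 and 1.24 CPM in wt retinas and 8.9, 11 and 8.54 CPM in R6/1 retinas. Its striatal groups overlapped, and its difference was 2.76, SE 0.30, adjusted p = 0.000115. Further higher genes were Ttyh2, a chloride channel family member (1.13, SE 0.11), the palmitoyltransferase gene Zdhhc23 (1.46, SE 0.14), the Ras GTPase-activating gene Rasa2 (1.11, SE 0.12), the fatty acid elongase gene Elovl2 (1.01, SE 0.12), the lipid flippase gene Atp8b2 (1.11, SE 0.14), Crybg3 (1.21, SE 0.15) and the iron carrier gene Trf (1.03, SE 0.14).

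Injury signalling was the list with the largest median difference after lens, 1.64, beside −0.02 over all genes. It holds genes that glia and neurons use after damage, and 9 of its 16 tested members had a higher difference, beside 3.38% of all genes. Like the lists that follow, it was written with earlier results of these data known, so its share is not a test. The count was 5 without wt retina replicate 2 or R6/1 retina replicate 2. In the retina 12 of the 16 passed as higher and 2 as lower, beside 9.92% and 12.6% of all genes. None passed in the striatum, where only 0.14% of all genes passed as higher and 1.3% as lower. Stat3, the transcription factor of cytokine signalling (ENSMUSG00000004040, chromosome 11 from 100885098 to 100939540), was at 41.5, 50.04 and 44.8 CPM in wt retinas and 91.4, 118 and 108 CPM in R6/1 retinas. In striata it was at 42.1, 46.7 and 45 CPM in wt and 49.6, 50.3 and 46.9 CPM in R6/1, and the difference was 1.09, SE 0.13, adjusted p = 0.000198. The R6/1 striata thus also lay above all wt striata, by less than in the retina and without passing there. Fgf2, a growth factor, was at 34.1, 37.1 and 42.1 CPM in wt retinas and 112, 164 and 107 CPM in R6/1 retinas, against 14.2, 13 and 12.9 CPM in wt and 9.81, 11.3 and 9.75 CPM in R6/1 striata (2.13, SE 0.23, adjusted p = 0.000198). All R6/1 retinas lay above the wt retinas while the R6/1 striata all lay below the wt striata, without passing there (adjusted p = 0.109). The cytokine inhibitor gene Socs3 (3.26, SE 0.49, adjusted p = 0.00107) and the oncostatin M receptor gene Osmr (1.14, SE 0.20, adjusted p = 0.00354) followed. Gfap, the intermediate filament gene of astrocytes and reactive Müller glia, was at 9.85, 11.2 and 13.1 CPM in wt retinas and 31.9, 39.8 and 33 CPM in R6/1 retinas. Striatal Gfap spread from 49.4 to 98.5 CPM over all 6 libraries, and the difference was 1.55, SE 0.37, adjusted p = 0.0323. It passed in only 3 of the 12 fits with a library left out, those without wt striatum replicate 1, R6/1 striatum replicate 2 or R6/1 striatum replicate 3.

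Complement, the serum and tissue proteins that tag cells and synapses for removal, moved in the same direction. Of 15 tested genes 9 had a higher difference, beside 3.38% of all genes, and none a lower one. The median of the list was 1.28. C1qc, a chain of the recognition protein C1q (ENSMUSG00000036896, chromosome 4 from 136889804 to 136893065), was at 2.23, 2.06 and 2.32 CPM in wt retinas and 5.88, 5.03 and 4.97 CPM in R6/1 retinas. In the striatum it was at 28.2, 27.6 and 23.8 CPM in wt and 23.2, 22.4 and 23.3 CPM in R6/1, and the difference was 1.46, SE 0.16, adjusted p = 0.00012. The R6/1 retinas lay above all wt retinas and the R6/1 striata below all wt striata, although the striatal change did not pass (adjusted p = 0.236). The other chains C1qa (1.37, SE 0.23) and C1qb (1.20, SE 0.20) also had higher differences, as did the C1 inhibitor gene Serping1 (1.29, SE 0.28) and C4b (2.16, SE 0.36), which has a near-identical copy that makes its value uncertain.

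Microglial genes pointed the same way. Among 15 microglia and macrophage markers 8 had a higher difference, with a median of 0.94, among 12 homeostatic microglia markers 4, and among 16 markers of disease-associated microglia 4. Of all genes tested, 3.38% had a higher difference. The 8 became 4 without wt retina replicate 3. The 4 homeostatic calls became 1 without wt retina replicate 2 or 3 or R6/1 retina replicate 1, and 2 without wt retina replicate 1, wt striatum replicate 1 or R6/1 striatum replicate 2. The 4 disease-associated calls became 1 without wt retina replicate 1, and 2 without R6/1 retina replicate 1 or 2 or R6/1 striatum replicate 3. Tyrobp, a signalling adaptor of microglia, was at 0.539, 0.368 and 0.622 CPM in wt retinas and 2.09, 1.45 and 1.23 CPM in R6/1 retinas (1.80, SE 0.34, adjusted p = 0.00504). The lysosomal glycoprotein gene Cd68 (1.46, SE 0.30), the lysosomal membrane gene Laptm5 (0.93, SE 0.17) and the protease gene Ctss (0.87, SE 0.14) differed too. Summed over the 15 microglia and macrophage markers, the level was 22.99 to 26.5 CPM in wt retinas and 40.7 to 50.5 CPM in R6/1 retinas. In striata it was 192 to 217 CPM in wt and 194 to 215 CPM in R6/1, so these groups overlapped. Whether the number of microglia or their RNA content moved with the complement and lysosomal genes was not tested. Of the 39 lysosomal genes 4 were higher, beside 3.38% of all genes. Among the 4 were the protease genes Ctss and Lgmn and the glucuronidase gene Gusb, and the median difference of the list was 0.07. Without wt retina replicate 2 the count was 2, Gusb missed the threshold in that fit, and Lgmn passed in 2 of the 12 fits with a library left out.

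Of 14 Müller glia genes 4 were higher, beside 3.38% of all genes. They were the thyroid hormone-binding gene Crym (1.40, SE 0.21), the carbonic anhydrase gene Car2 (0.63, SE 0.10), the chaperone gene Clu (0.76, SE 0.13) and the apolipoprotein gene Apoe (0.50, SE 0.12, not passing without wt retina replicate 1). Serpina3n, a protease inhibitor of reactive astrocytes, had a difference of 2.23, SE 0.46, adjusted p = 0.014. Of 10 markers of the A2 type of reactive astrocyte none passed, beside 8.24% of all genes in either direction. Of 12 of the A1 type 3 were higher, Serping1, H2-T23 and Gbp2, with 1 left without wt retina replicate 1 or 3 or R6/1 retina replicate 2. Serping1 is counted among the complement genes as well, H2-T23 among the MHC class I genes and Gbp2 among the interferon genes. These counts are therefore not independent.

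In the interferon response list most genes rose in the retina, while few differences passed. Of its 32 tested genes 27 passed as higher in the retina, where 9.92% of all genes did, and none passed in the striatum, where 0.14% of all genes did. The median fold change was 1.06 in the retina and 0.36 in the striatum on the log2 scale. The difference passed for 4, all higher, beside 3.38% of all genes. That count was 1 without wt retina replicate 2 and 2 without wt retina replicate 3, R6/1 retina replicate 2, wt striatum replicate 2 or R6/1 striatum replicate 3. Irgm1, an interferon-induced GTPase gene, was at 6.54, 4.5 and 6.33 CPM in wt retinas and 16.8, 16.1 and 14.5 CPM in R6/1 retinas. The striatal level was 8.74, 11.1 and 8.6 CPM in wt and 12.3, 14.1 and 10.7 CPM in R6/1, with a difference of 1.06, SE 0.22, adjusted p = 0.00828. The other 3 were Gbp7 (0.66, SE 0.16, not passing without wt retina replicate 2), Gbp2 (1.02, SE 0.28, adjusted p = 0.0348) and Ifi27 (0.93, SE 0.26, adjusted p = 0.0425). Gbp2 passed in 6 and Ifi27 in 4 of the 12 fits with a library left out, so both calls depended on single libraries of either tissue.

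Genes of MHC class I, which presents peptides at the cell surface, had higher differences for 5 of 18, beside 3.38% of all genes. B2m, the invariant light chain, was at 21.3, 22.6 and 18.7 CPM in wt retinas and 43.4, 49 and 34.8 CPM in R6/1 retinas. In striata it was at 49.2, 60.9 and 54.7 CPM in wt and 61.2, 63.7 and 59.2 CPM in R6/1, where the groups overlapped, and the difference was 0.87, SE 0.16, adjusted p = 0.00504. H2-K1 (0.91, SE 0.15), H2-Q4 (1.41, SE 0.27), H2-T23 (1.07, SE 0.26) and the immunoproteasome gene Psmb10 (0.87, SE 0.20) were the other 4. H2-T23 did not pass without wt retina replicates 1 or 3, R6/1 retina replicate 2 or wt striatum replicate 3. The H2 genes have near-identical copies between which reads can be split, so their separate values are uncertain.

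The promoters of 3 of these genes are shown because they hold the interferon-stimulated response element (ISRE), searched on both strands as GAAA, any 2 bases and GAAA again. They were chosen after the values were seen. Each line gives the 250 bases before the transcription start on the gene's own strand, from RefSeq on GRCm38.p6, with the match in capitals. B2m lies on the plus strand (chr2:122147437-122147686), Gbp2 on the plus strand (chr3:142620413-142620662) and Irgm1 on the minus strand (chr11:48871421-48871670).
B2m: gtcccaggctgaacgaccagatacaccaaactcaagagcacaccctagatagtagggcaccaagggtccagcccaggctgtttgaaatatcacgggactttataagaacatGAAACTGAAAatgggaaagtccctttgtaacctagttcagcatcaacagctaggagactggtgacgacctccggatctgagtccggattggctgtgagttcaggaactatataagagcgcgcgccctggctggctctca
Gbp2: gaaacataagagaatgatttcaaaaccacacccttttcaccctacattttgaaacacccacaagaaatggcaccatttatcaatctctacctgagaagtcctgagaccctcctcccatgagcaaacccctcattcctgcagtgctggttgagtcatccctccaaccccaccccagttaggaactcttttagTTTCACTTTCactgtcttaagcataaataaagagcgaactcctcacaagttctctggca
Irgm1: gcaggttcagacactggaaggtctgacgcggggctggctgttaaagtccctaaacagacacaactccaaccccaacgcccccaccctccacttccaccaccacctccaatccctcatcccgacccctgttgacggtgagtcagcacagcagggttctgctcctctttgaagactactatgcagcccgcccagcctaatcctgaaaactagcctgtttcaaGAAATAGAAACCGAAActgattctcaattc
The match begins 139 bases before the start in B2m and 59 bases before it in Gbp2, where it reads on the opposite strand. Irgm1 holds 2 matches that overlap, which begin 30 and 24 bases before the start. Over all genes tested, 2.63% of 14998 promoter windows held an ISRE. It was in 14 of the 28 windows of the interferon list and in 18.8% of the 16 windows of the MHC list, but in 3.51% of the 541 windows of all genes with a higher difference. Within the interferon list, it was in 3 of 3 genes with a higher difference and a window, and in 11 of 21 genes with a window whose difference did not pass. Genes with a lower difference held it in 1.98% of 759 windows. A match describes these letters and does not show that a factor bound there.

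Clock genes, which time daily rhythms of transcription, passed as lower in the retina for 13 of 22 tested and as higher for 1, beside 12.6% and 9.92% of all genes. None passed in the striatum, where only 1.3% of all genes passed as lower and 0.14% as higher. The difference was lower for 3 and higher for 1, beside 4.86% and 3.38% of all genes. Per3, a period gene (ENSMUSG00000028957, chromosome 4 from 151003652 to 151044665), was at 144, 131 and 128 CPM in wt retinas and 61.6, 66.1 and 71.4 CPM in R6/1 retinas. Striata held 41.8, 39 and 48.4 CPM in wt and 44.7, 40.7 and 38.7 CPM in R6/1, and the difference was −0.96, SE 0.12, adjusted p = 0.000346. The repressor gene Bhlhe41 (−0.90, SE 0.10, adjusted p = 0.000138) and the nuclear receptor gene Nr1d2 (−0.45, SE 0.09, adjusted p = 0.00743) were lower as well. Arntl, the activator that Per proteins oppose, was at 114, 109.9 and 113 CPM in wt retinas and 139, 135 and 141 CPM in R6/1 retinas. The striatal level was 44.9, 39.6 and 38.9 CPM in wt and 33.7, 31 and 33.3 CPM in R6/1, so that both tissues had groups that did not overlap but in opposite directions, with a difference of 0.64, SE 0.09, adjusted p = 0.000791. The sources used here do not give the time of day of dissection.

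The Per3 promoter is shown because it holds 2 D-boxes, TTATGTAA, the site of the PAR bZIP factors of the clock. It lies on the minus strand (chr4:151044666-151044915) and is printed as above, with the D-boxes in capitals.
Per3: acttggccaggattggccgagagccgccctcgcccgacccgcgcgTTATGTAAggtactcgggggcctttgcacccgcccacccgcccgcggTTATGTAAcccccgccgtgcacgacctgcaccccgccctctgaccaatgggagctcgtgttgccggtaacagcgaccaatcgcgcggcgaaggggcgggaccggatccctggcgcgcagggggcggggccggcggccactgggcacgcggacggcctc
The D-boxes begin 205 and 158 bases before the start. A D-box was in 0.493% of all windows and in 3.70% of the 27 windows of the clock list, that of Per3. The E-box CACGTG, the site of Arntl and Clock, was in 22.2% of the clock windows and 7.72% of all windows.

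Immediate early genes, which neurons and glia switch on within minutes of a stimulus, were higher for 5 of 17, beside 3.38% of all genes. The median difference was 0.54. The count of higher genes was 2 without R6/1 retina replicate 2, 3 without wt retina replicate 1 or 3, and 8 without both striatal libraries numbered 2. The summed level of the 18 list members in the table was 213 to 257 CPM in wt retinas and 272 to 297 CPM in R6/1 retinas, and 641 to 805 CPM in wt striata and 383 to 504 CPM in R6/1 striata. Neither pair of groups overlapped, and the directions were opposite. Jun, a subunit of the AP-1 factor, was at 25.7, 24.6 and 22.4 CPM in wt retinas and 37.6, 43.7 and 43.2 CPM in R6/1 retinas. In striata it was at 26.2, 25.1 and 29 CPM in wt and 23.5, 24.5 and 20.4 CPM in R6/1, and the difference was 1.01, SE 0.13, adjusted p = 0.000438. Egr1 was at 13.9, 21.7 and 14.9 CPM in wt retinas and 69.9, 38.7 and 32.6 CPM in R6/1 retinas, and at 198, 177 and 204 CPM in wt and 126, 88.9 and 132 CPM in R6/1 striata. Neither tissue passed alone for Egr1, with adjusted p = 0.0751 and 0.0651, while the difference did (2.23, SE 0.42, adjusted p = 0.0135).

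Calls in opposite directions in the 2 tissues were rare, with 16 genes or 0.102% of those tested. The difference also passed for all of them, which calls in opposite directions make likely. Higher in the retina and lower in the striatum were 13. Ago4, an Argonaute protein gene of small RNA silencing (ENSMUSG00000042500, chromosome 4 from 126489541 to 126533472), was at 36.3, 31 and 33.8 CPM in wt retinas and 60.3, 61.3 and 57.8 CPM in R6/1 retinas. The striatal level was 33.5, 29.6 and 33.2 CPM in wt and 21.1, 19.7 and 21.9 CPM in R6/1, and the difference was 1.45, SE 0.11, adjusted p = 9.43e-06. Wt levels were alike in both tissues, and the R6/1 levels lay on either side of them. The mitochondrial iron importer gene Slc25a37 (0.94, SE 0.12), the membrane linker gene Ezr (0.87, SE 0.11), the secreted protease gene Htra1 (1.01, SE 0.13), the ETS factor gene Etv5 (0.93, SE 0.13) and the brain creatine kinase gene Ckb (0.81, SE 0.14) behaved likewise. So did Kctd17 (0.93, SE 0.13), Fbxl16 (1.10, SE 0.16), the motor gene Myo5b (1.04, SE 0.17), Kazn (0.84, SE 0.15) and the predicted gene Gm19410 (3.20, SE 0.29). Clspn, a checkpoint adaptor, and Egr2 completed the 13, both from very low retinal levels. Egr2 was at 0, 0 and 0.0565 CPM in wt retinas and 0.165, 0.415 and 0.279 CPM in R6/1 retinas, beside 5.48, 7.08 and 8.23 CPM in wt and 1.19, 1.34 and 2.38 CPM in R6/1 striata, and without R6/1 retina replicate 2 its retinal counts fell below the minimum for testing.

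Lower in the retina and higher in the striatum were 3. Taok3, a stress kinase gene (ENSMUSG00000061288, chromosome 5 from 117120129 to 117275219), was at 189, 220.1 and 224 CPM in wt retinas and 108, 120.4 and 126 CPM in R6/1 retinas. In striata it was at 49.9, 59.3 and 50.1 CPM in wt and 70.8, 70.3 and 70.3 CPM in R6/1, with a difference of −1.24, SE 0.12, adjusted p = 4.13e-05. Htr2c, a serotonin receptor gene, was at 5.39, 5.45 and 6.33 CPM in wt retinas and 3.46, 4.2 and 4.02 CPM in R6/1 retinas, against 115, 120.2 and 93.8 CPM in wt and 165, 145 and 163 CPM in R6/1 striata (−1.09, SE 0.17, adjusted p = 0.00173). Nufip2, an RNA-binding protein gene, was the third (−0.64, SE 0.09, adjusted p = 0.000459). For all 3 the groups stood apart in both tissues. The striatal side of these 16 calls rested on few libraries: with the replicate number as a block 15 of 16 were kept, but without wt striatum replicate 1, wt striatum replicate 3 or R6/1 striatum replicate 1 none was, and without R6/1 striatum replicate 3 only 1 was. The difference itself passed for each of the 16 in every fit with a library left out in which it was tested.

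**Figure D3:**
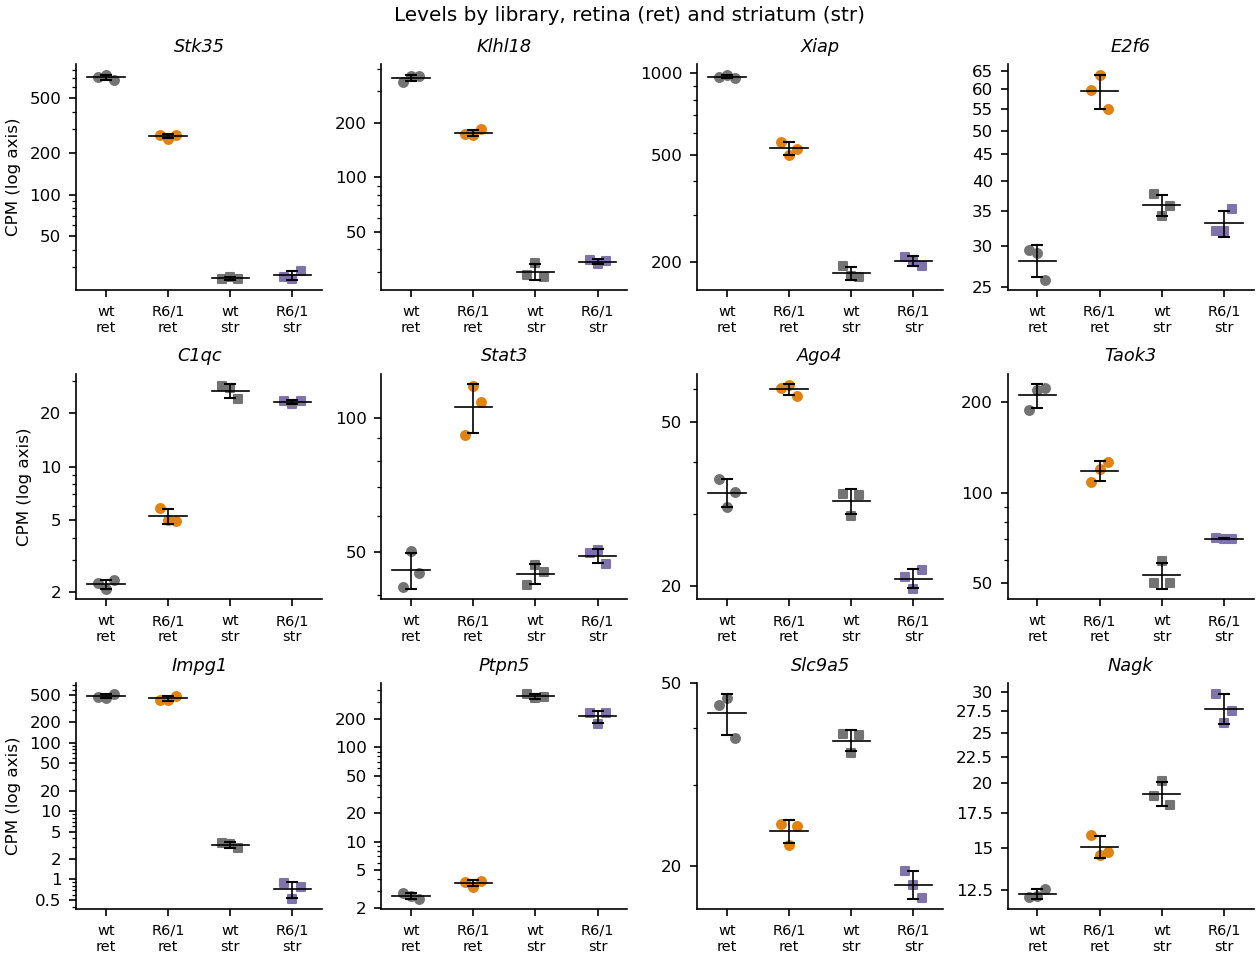
CPM on a log axis in each library (points) with the mean and SD of the 3 pools (lines and bars), for 12 genes. Stk35, Klhl18 and Xiap fall in the retina alone, E2f6, C1qc and Stat3 rise in the retina alone, Ago4 and Taok3 move in opposite directions, Impg1 and Ptpn5 fall in the striatum alone, and Slc9a5 falls and Nagk rises in both; alone means that the other tissue did not pass.

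Of the genes whose difference passed, 79 were called in the striatum alone, 74 of them lower there, while 1.3% of all genes tested were lower in the striatum. Of 11 tested marker genes of striatal interneurons 2 had a higher difference, beside 3.38% of all genes. They were Slc5a7 and Chat, both of cholinergic interneurons. Slc5a7, the choline transporter of cholinergic neurons (ENSMUSG00000023945, chromosome 17 from 54273590 to 54299034), was at 48, 35.8 and 41.8 CPM in wt striata and 19.4, 17.6 and 20.8 CPM in R6/1 striata. In retinas it was at 20.8, 20.05 and 21.2 CPM in wt and 20.9, 20.5 and 24.2 CPM in R6/1, and the difference was 1.20, SE 0.15, adjusted p = 0.000331. Chat, the enzyme that makes acetylcholine, was at 10.1, 8.52 and 10.2 CPM in wt striata and 5.0, 3.86 and 4.49 CPM in R6/1 striata, and at 8.5, 6.49 and 7.63 CPM in wt and 5.72, 7.31 and 7.81 CPM in R6/1 retinas (0.99, SE 0.22, adjusted p = 0.0142). The vesicular glutamate transporter gene Slc17a8, which cholinergic interneurons and a class of amacrine cells both use, differed by 0.86, SE 0.16. For these 3 genes the striatal groups stood apart and the retinal groups overlapped. Slc18a3, the vesicular acetylcholine transporter gene, had an interval of −0.27 to 1.41 and did not pass.

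For medium spiny neuron markers, the median fold change of 30 tested genes was −1.13 in the striatum and −0.29 in the retina. However, the difference was higher for only 5, beside 3.38% of all genes, and lower for 1, Isl1, beside 4.86%. The 5 were the phosphatase gene Ptpn5, the postsynaptic scaffold gene Homer1, the phosphatase inhibitor gene Arpp19, the cannabinoid receptor gene Cnr1 and the adenylyl cyclase gene Adcy5. Ptpn5 was at 371, 332 and 338 CPM in wt striata and 231, 175 and 231 CPM in R6/1 striata, and at 2.83, 2.65 and 2.49 CPM in wt and 3.74, 3.32 and 3.79 CPM in R6/1 retinas (1.15, SE 0.21, adjusted p = 0.00355). Homer1 was at 362, 248 and 355 CPM in wt striata and 159, 116 and 157 CPM in R6/1 striata, and at 62.4, 64.9 and 56.1 CPM in wt and 56.6, 61.2 and 56.6 CPM in R6/1 retinas (1.09, SE 0.21, adjusted p = 0.0111). Homer1 thus was reduced in every R6/1 striatum and overlapped between retinas. For Pde10a, a striatal phosphodiesterase, the values were 1418, 959 and 1170.3 CPM in wt striata and 469, 244 and 469 CPM in R6/1 striata, with an interval of the difference of 0.12 to 2.69 and an adjusted p of 0.177. Penk, the enkephalin precursor gene, had an interval of −0.16 to 2.05 (adjusted p = 0.29). Adcy5 passed in 4 of the 12 fits with a library left out. Wt striatum replicate 2 was the lowest wt striatum for Ptpn5, Homer1, Arpp19, Adcy5, Pde10a and Penk. Without it and R6/1 striatum replicate 2, a setting chosen after the data were seen, 16 of the 30 genes had a higher and 2 a lower difference, and with the replicate number as a block 15 and 1. The higher calls were 3 without wt retina replicate 1 or 2 and 10 without R6/1 striatum replicate 2. Markers of cortical excitatory neurons, cells that a striatal dissection can include, were measured beside them. Their median fold change was −0.65 in the striatum and −0.35 in the retina, and the 11 in the table summed to 2243 to 3807 CPM in wt striata and 1832 to 2140 CPM in R6/1 striata, groups that did not overlap. None of the 10 tested passed for the difference, which passed as higher for 3 without wt striatum replicate 2. None passed in the striatum either, where only 1.3% of all genes passed as lower. The part of the cortical markers in the values of the medium spiny neuron markers was not tested.

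Impg1, a proteoglycan gene of the photoreceptor matrix (ENSMUSG00000032343, chromosome 9 from 80313330 to 80465481), was at 3.37, 3.34 and 2.85 CPM in wt striata and 0.875, 0.521 and 0.775 CPM in R6/1 striata. In retinas it was at 475, 458 and 528 CPM in wt and 427, 427 and 492 CPM in R6/1, which did not pass, and the difference was 2.06, SE 0.22, adjusted p = 0.000106. The stress sensor gene Atf6 (0.79, SE 0.14) and the stress-induced regulator gene Nupr1 (1.45, SE 0.27) were lower in the striatum alone, as was the sterol regulator gene Srebf2 (0.43, SE 0.11). Srebf2 did not pass without wt retina replicates 2 or 3, R6/1 retina replicate 2, wt striatum replicates 1 or 3 or R6/1 striatum replicate 1. Of 13 mitochondrially encoded respiratory chain genes 4 had a higher difference, and of 26 nuclear ones 4, beside 3.38% of all genes. The nuclear count was 1 without wt retina replicate 3, R6/1 retina replicate 1, wt striatum replicate 1 or R6/1 striatum replicate 3, and 2 without wt retina replicate 1. The complex I gene mt-Nd1 was at 7410.3, 7886 and 8087 CPM in wt retinas and 9177, 9178 and 8657 CPM in R6/1 retinas, and at 12098, 11939 and 10679 CPM in wt and 9510.3, 9289 and 9417 CPM in R6/1 striata. Its groups stood apart in both tissues in opposite directions, neither of which passed alone (adjusted p = 0.0523 and 0.113), and the difference was 0.51, SE 0.10, adjusted p = 0.00565. The groups of mt-Nd2 also stood apart in opposite directions (0.49, SE 0.10), while mt-Nd6 overlapped in the retina and was lower in the striatum (0.66, SE 0.14).

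Genes with a mean under 1 CPM in 1 tissue made up 33 of the lower and 35 of the higher genes. Zan, a zonadhesin gene, was at 11.4, 11.9 and 10.7 CPM in wt retinas and 2.31, 2.02 and 2.01 CPM in R6/1 retinas and at 0.542 to 0.805 CPM in striata (−2.51, SE 0.29, adjusted p = 0.000162). Col4a3, a basement membrane collagen gene, was at 81.9, 96 and 80.0 CPM in wt retinas and 10.5, 6.94 and 15 CPM in R6/1 retinas (−3.52, SE 0.52, adjusted p = 0.0024), which did not pass without both striatal libraries numbered 2. The sushi domain gene Susd3 (−1.48, SE 0.26) and the replication gene Mcm10 (−2.04, SE 0.40) were lower as well. Akr1b8, an aldo-keto reductase gene, was at 1.01, 0.958 and 0.905 CPM in wt retinas and 8.79, 8.39 and 7.09 CPM in R6/1 retinas and below 1 CPM in each striatum (2.54, SE 0.49, adjusted p = 0.00532), and the axon guidance gene Slit3 was higher too (1.67, SE 0.34). Pou4f3, a ganglion cell transcription factor gene, was listed at 0 in all wt striata and at 0.375, 0.26 and 0.222 CPM in R6/1 striata, beside 3.51, 3.54 and 3.62 CPM in wt retinas and 1.92, 2.54 and 3.01 CPM in R6/1 retinas. Ugt1a7c, a glucuronosyltransferase gene that shares exons with its neighbours, was at 0 in all wt retinas and at 0.33, 0.259 and 0.558 CPM in R6/1 retinas. Of 9 choroid plexus genes, which bear on the striatal library with high Ttr, Clic6 and Kl had lower differences, beside 4.86% of all genes. Kl passed in 6 and Clic6 in 10 of the 12 fits with a library left out, and neither passed without wt retina replicate 3. Pou4f3 and Ugt1a7c passed for the difference, and no fold is given for them because it would rest on the groups at 0.

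Shared effects were measured by 2 criteria, a call in both tissues and an interval of the difference that is narrow. Called lower in both tissues were 62 genes (0.394% of those tested), which are 3.14% of the 1977 genes lower in the retina and 30.4% of the 204 lower in the striatum. Called higher in both were 7 (0.0445%), or 0.449% of 1560 and 31.8% of 22. Retinal calls far outnumbered striatal ones, so a small share of the first list and a larger share of the second describe the same genes. The median fold changes of the 62 were −0.59 in the retina and −0.82 in the striatum, with the striatal one larger for 49. These calls hung on the striatal libraries. With the replicate number as a block 58 of the 62 and all 7 were kept, but without wt striatum replicate 1 none was, without wt striatum replicate 3 or R6/1 striatum replicate 1 it was 2 and 0, and without R6/1 striatum replicate 3 it was 9 and 0. Without R6/1 striatum replicate 2 it was 43 and 4. The block itself raised the counts to 324 lower and 117 higher in both tissues, and leaving out wt striatum replicate 2 to 332 and 184.

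Slc9a5, a sodium/proton exchanger gene of the brain (ENSMUSG00000014786, chromosome 8 from 105348843 to 105369881), had the smallest adjusted p in the striatum among the 62. It was at 44.8, 46.4 and 38 CPM in wt retinas and 24.7, 22.2 and 24.4 CPM in R6/1 retinas, or −0.82, SE 0.08, adjusted p = 1.84e-06 on the log2 scale. The striatal level was 38.8, 35.3 and 38.6 CPM in wt and 19.5, 18.1 and 17 CPM in R6/1, or −1.05, SE 0.09, adjusted p = 0.00462 on that scale. The interval of the difference was −0.08 to 0.46. The ubiquitin ligase gene Traip fell by 1.46 in the retina and by 1.21 in the striatum on the log2 scale (interval of the difference −0.69 to 0.12). Crocc, which encodes rootletin of the ciliary rootlet, was at 208, 219.8 and 191 CPM in wt retinas and 128, 139 and 133 CPM in R6/1 retinas, and at 42.7, 48.2 and 50.3 CPM in wt and 28, 25.7 and 28.9 CPM in R6/1 striata (interval −0.08 to 0.38). Id4, an inhibitor of bHLH factors, had an interval of −0.12 to 0.44. The R6/1 pools of both tissues lay below all wt pools for these genes.

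Several neuronal signalling genes were among the 62 and are named here after their values were seen. The protein phosphatase inhibitor gene Ppp1r1a (−0.78 in the retina and −1.36 in the striatum) and the G protein regulator gene Rgs11 (−0.69 and −1.22) were lower in both. So were the potassium channel-interacting protein gene Kcnip2 (−1.54 and −1.04), the histamine receptor gene Hrh3 (−1.37 and −1.51), the nitric oxide synthase gene Nos1 (−0.57 and −0.57) and the glutamate receptor gene Grm4 (−0.76 and −0.75). The interval of the difference was 0.13 to 0.95 for Ppp1r1a and 0.18 to 0.80 for Rgs11, both off 0. It was −1.13 to 0.09 for Kcnip2, −0.52 to 0.74 for Hrh3, −0.45 to 0.39 for Nos1 and −0.50 to 0.41 for Grm4. Glul, the glutamine synthetase gene of astrocytes and Müller glia, was lower as well (−0.37 and −0.50). The difference passed for 5 of the 62. It was lower for the monocarboxylate transporter gene Slc16a6 (−0.72, SE 0.10) and the chemokine gene Cxcl14 (−0.55, SE 0.15). It was higher for the calmodulin regulator gene Pcp4 (0.77, SE 0.20), the sialyltransferase gene St8sia2 (0.87, SE 0.22) and Abhd11os (2.10, SE 0.60).

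Among the 7 genes higher in both, Pcdhb22 (interval of the difference −0.55 to 0.05), Armcx5 (−0.30 to 0.25) and Myl6b (−0.59 to 0.51) are given by their intervals and the other 4 in turn. Nagk, the kinase of N-acetylglucosamine (ENSMUSG00000034744, chromosome 6 from 83794982 to 83804018), was at 12.1, 12.2 and 12.6 CPM in wt retinas and 15.9, 14.6 and 14.8 CPM in R6/1 retinas, and at 18.9, 20.2 and 18.2 CPM in wt and 29.7, 26.1 and 27.6 CPM in R6/1 striata. The groups did not overlap in either tissue, and the interval of the difference was −0.50 to 0.02. Hjurp, a chaperone of the centromeric histone, was at 52.9, 48.3 and 51.2 CPM in wt retinas and 66.7, 72.2 and 67.6 CPM in R6/1 retinas, and at 62.9, 82.7 and 69.9 CPM in wt and 103, 108 and 98.5 CPM in R6/1 striata (interval −0.34 to 0.17). The spindle gene Tpx2 had the widest interval of the 7, −0.87 to 0.45, and the amino acid transporter gene Slc6a15 one of −0.13 to 0.32. The difference did not pass for any of the 7, and for 4 of them the interval lay within 0.5 of 0.

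**Figure D4:**
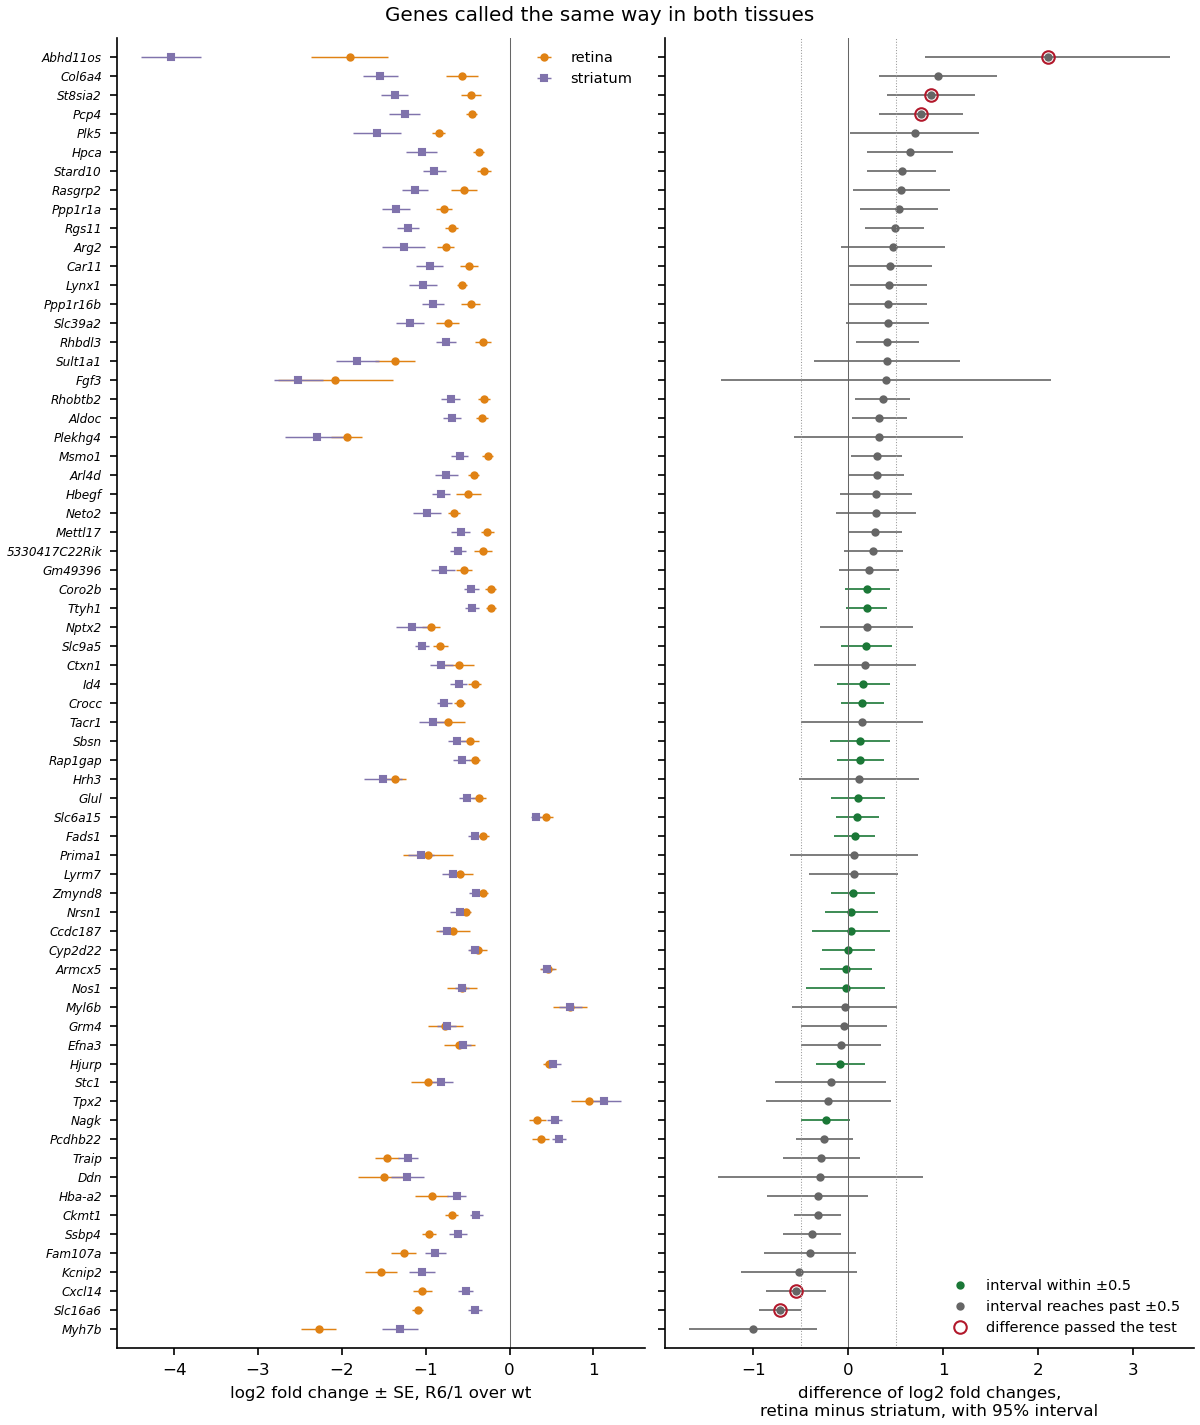
The genes called the same way in both tissues, 68 of 69 drawn. Left, log2 fold change of R6/1 over wt with its SE in the retina (circles) and the striatum (squares); right, the difference with its 95% interval, green where the interval lies within 0.5 of 0 and ringed for the 5 genes whose difference passed. Most striatal points lie farther from 0 than the retinal ones.

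A difference that misses the threshold does not show equal effects, so the intervals were read as well. They lay within 0.5 of 0 on the log2 scale for 6109 genes, 38.8% of those tested, of which 991 were called in the retina and 32 had a difference that passed. For 8358 genes the difference neither passed nor was bounded in this way. The median margin of the interval was 0.30 for genes at 1 CPM or more in both tissues and 1.58 for the 2814 genes under 1 CPM in 1 tissue. Eef2, an elongation factor gene used as a reference, had a difference of 0.00 with an interval of −0.21 to 0.21. Of 28 synaptic vesicle release genes 10 were bounded and none passed, but 1 was lower and 5 higher without wt striatum replicate 2, 2 lower and 4 higher without both striatal libraries numbered 2, and 2 lower with DESeq2. For the list counts in this paragraph, 4.86% of all genes tested were lower and 3.38% higher. Of 29 autophagy genes 1 was lower, 1 higher and 24 bounded, and of 33 cytosolic ribosomal protein genes 1 was higher and 18 bounded. With 1 library left out, no autophagy gene was higher in 5 of the 12 fits and no ribosomal one in 9. Huntingtin itself, the mouse Htt gene, had a difference of −0.34, SE 0.11, adjusted p = 0.0748 with an interval of −0.58 to −0.10. Among 18 genes of huntingtin partners and CREB coactivators, Optn was lower (−0.75, SE 0.17) and Ntrk2, the receptor of BDNF, higher (0.44, SE 0.12). Ntrk2 passed in 3 of the 12 fits with a library left out. Heat shock and chaperone genes (22), with 2 lower and 2 higher, and genes of the integrated stress and unfolded protein response (25), with 1 lower and 2 higher, had medians of 0.06 and −0.02. With 1 library left out, the heat shock counts ranged from 1 to 2 lower and from 0 to 3 higher, and no stress response gene was lower in 8 of the 12 fits.

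Genes called for the difference were mostly protein-coding, 96.9% of the lower and 98.9% of the higher ones beside 95.4% of all tested. Their median span in the GENCODE vM21 annotation was 34.3 kb for the lower and 26.4 kb for the higher genes beside 23.8 kb overall. The 62 genes lower in both tissues spanned a median of 14.8 kb and the 7 higher in both 9.04 kb.

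**Figure D5:**
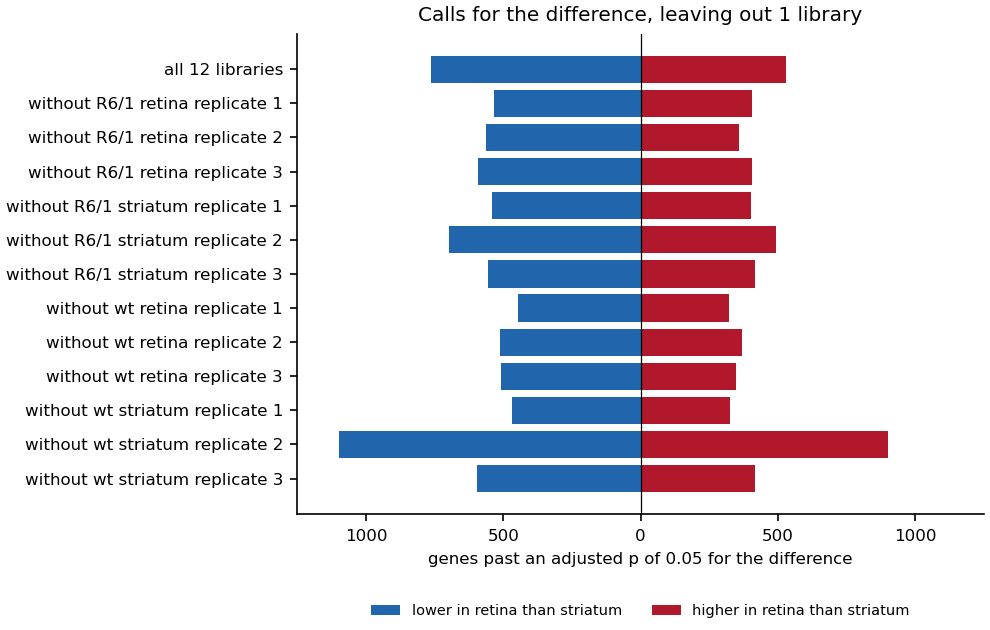
Genes with a lower (left, blue) and a higher (right, red) difference at an adjusted p under 0.05, with all 12 libraries and with each library left out in turn. Counts lie between 445 and 1097 on the left and between 322 and 902 on the right, with the highest of each without wt striatum replicate 2.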

How the data were processed

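RNA-seq was measured in 12 libraries (TruSeq stranded mRNA, paired-end). Per the submitters' processing notes and methods, the authors used CASAVA, Trimmomatic and Salmon with GRCm38/mm10, and the deposited values are estimated counts per Ensembl gene, given as whole numbers. How transcripts were summed to genes, and tool versions, are not given in the sources used here. Counts of 1 table were used, with 0 columns of no sample.

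Genes with at least 10 counts over the 6 libraries of each tissue were tested with edgeR 4.0.16 in R 4.3.3 (TMM, robust glmQLFit, glmQLFTest, Benjamini-Hochberg, threshold 0.05). Intervals are 95% intervals from the SE and the t quantile. Alternatives used limma 3.58.1 and DESeq2 1.42.0, other scalings, filters, replicate blocks and each library left out. Tables and figures used Python 3.11.15, numpy 2.4.6, pandas 2.3.3, scipy 1.17.1 and matplotlib 3.10.9. The script was tested on simulated data. Depth was 14070445 to 22432431 counts per library.

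Gene lists and the choice of this contrast were made with earlier results of these data known. Named genes are the 15 with the smallest p in each direction with an absolute difference of at least 1 and a mean of at least 1 CPM in each tissue; the 5 in each direction under 1 CPM in 1 tissue; up to 10 per direction called in both tissues; all called in opposite directions; up to 4 per list; and genes the study names. Others were named after their values were seen: the 5 genes lower in both tissues whose difference passed, Cnr1, and the shared neuronal signalling genes. Some genes the rule selects are not described, and some are not reported here or drawn. Predicted genes were counted and described only where the rule for large differences or opposite directions took them.

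Symbols came from a name table (17527 genes) and positions from GENCODE vM21 on GRCm38. Promoters came from RefSeq on GRCm38.p6 and matched 11715 of 15731 genes tested.

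Pairing was checked over 10453 genes by correlating deviations from group means. Wt and R6/1 striata with the same number correlated at 0.277, 0.321 and 0.247. Of the unlike numbers, wt striatum replicate 1 with R6/1 striatum replicate 3 reached 0.233, and the others lay between −0.387 and −0.0431. Replicate 2 thus stood apart in both striatal groups, while replicates 1 and 3 were not cleanly told apart. Deviations from a group mean cancel out within the group, so a single outlying library in each group can give this pattern. The check therefore cannot show that equal numbers mark pairs. Retinas did not pair (0.119, −0.0954 and 0.0455), and unlike numbers reached 0.230 there (wt replicate 3 with R6/1 replicate 2). Wt retina did not pair with wt striatum (−0.0429, 0.0253 and 0.0214), while R6/1 retina with R6/1 striatum gave 0.242, 0.118 and 0.180. The labels do not state what the number marks.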

Additional observations from a re-analysis of the deposited data

Results flagged for a closer look

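The genotype effect differed between the tissues, by the edgeR test of the difference itself, with a negative difference (retina minus striatum) for 765 genes and a positive one for 531.

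Each of the 16 genes called in opposite directions also differed by that test. The differences of those higher in the retina were 1.45 for Ago4, 3.20 for Gm19410, 0.94 for Slc25a37, 0.87 for Ezr and 1.01 for Htra1. They were 0.93 for Kctd17, 0.93 for Etv5, 1.10 for Fbxl16, 5.44 for Egr2 and 1.04 for Myo5b. They were 0.81 for Ckb, 4.30 for Clspn and 0.84 for Kazn. Those lower in the retina were −1.24 for Taok3, −0.64 for Nufip2 and −1.09 for Htr2c. Egr2 and Clspn lay below 1 CPM in every retina, and their fitted differences depend on the prior count.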

How the results depend on the processing

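Of 156 named genes whose difference passed, 110 passed without any 1 library and 46 missed the threshold without at least 1. Over 4055 values under alternatives, 3659 stayed past the threshold, 396 missed it and 0 reversed; for counts over all genes not printed below, values stayed within 1.5 times the main value. Counts within gene lists moved more, and those are given beside each list. The cause was not tested for any of the moves below, except that the stricter threshold calls fewer genes by construction.

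A replicate block of the number within each tissue treats libraries of equal number as pairs, which was not established. With it the difference was lower for 1044 and higher for 833 genes. With a block of the pool across tissues it was lower for 636 and higher for 486. The number block gave 1190 lower and 473 higher genes in the striatum, 324 and 117 in both tissues, and 44 (retina lower) and 87 (retina higher) in opposite directions.

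At an adjusted p under 0.01 the difference was lower for 284 and higher for 158, the retina had 1364 lower and 745 higher, the striatum 7 and 0, both tissues 3 and 0, and opposite directions 0 and 0. With sample quality weights in limma-voom 879 genes had a higher difference. DESeq2 gave 805 lower and 177 higher in the striatum, 218 and 51 in both, and 15 and 37 in opposite directions. Library totals gave 3886 higher in the retina, 220 higher in the striatum, 121 higher in both, and 8 and 25 in opposite directions. One fit of all 12 libraries gave 992 higher in the retina, 887 lower and 413 higher in the striatum, 227 and 73 in both, and 36 and 24 in opposite directions. Without both striatal libraries numbered 2, chosen after seeing the data, 1011 genes had a higher difference, the striatum had 1658 lower and 1004 higher, both tissues 450 and 235, and opposite directions 79 and 105.

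With each library left out in turn, the difference was lower for 445 to 1097 and higher for 322 to 902 genes, with the lowest counts without wt retina replicate 1 and the highest without wt striatum replicate 2. The retina ranged from 1557 to 2103 lower and 960 to 1588 higher, the striatum from 1 to 1201 lower and 0 to 715 higher, both tissues from 0 to 332 and 0 to 184, and opposite directions from 0 to 67 and 0 to 73. Without wt striatum replicate 1 the difference was lower for 467 and higher for 325 genes.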
